A study of Mus musculus with 6 samples.

Results

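The 8 mouse genes described here encode the opioid receptors and the precursors of the opioid peptides. The receptor genes are Oprm1, Oprd1, Oprk1 and Oprl1, and the precursor genes are Penk, Pdyn, Pomc and Pnoc. They were picked by symbol as a gene family, with earlier results of these data known. They were found in the deposited catalogues through their Ensembl gene IDs. All 8 were listed in all 6 libraries, among 15939 gene IDs listed in at least 1, and all 8 were among the 15040 genes that passed the filter on low values.

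RNA came from the nucleus accumbens of C57BL/6N mice that received morphine injections in conditioned place preference training, in which an animal learns to link a chamber with an injection, and of C57BL/6N mice that received saline injections in the same training. Replicates 4, 5 and 6 were morphine libraries and replicates 1, 2 and 3 were saline libraries, and values below follow that order. The design text gives 3 samples and 6 mice per group and does not tie mice to samples, so p-values measure the spread between these samples, which may be technical. No genotype other than the strain, and no dose, age, sex or collection time, is given in the sources used here.

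Opioid receptors are G protein-coupled receptors that couple to inhibitory G proteins, lower cyclic AMP, open potassium channels and close calcium channels. Their peptide ligands are cut out of larger precursor proteins by proteases in secretory vesicles. In the striatum, enkephalin and dynorphin are made by the medium spiny neurons of the indirect and the direct pathway, and the mu receptor is the main target of morphine.

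The deposited file of each library lists events, which are features of transcripts assembled from that library. A first exon event marks a promoter, a last exon event marks a 3′ end, a skipping event names an exon that is left out of another assembled transcript, and an alternative exon end names an exon whose splice site differs between transcripts. Intron retention is the remaining class. A first or last exon is identified by its inner splice site, so its outer end may differ between libraries while it remains the same event. Distinct events were counted for each gene in each library. This number is not an expression level, the read depth is unknown, and an event that is not listed need not be absent. Differences in the number of cells of a type and in the RNA per cell cannot be told apart in such tissue RNA.

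The libraries listed 57981, 56546 and 56416 distinct events under morphine, and 58007, 54641 and 57132 under saline. All 14 striatal neuron markers were listed in all 6 libraries, as were 17 of 18 markers of other cell types. Of 10 genes chosen as markers of neighbouring regions and the pituitary, 7 were listed in all 6 libraries, and Prl, Agrp and Slc6a3 were not. Npy was also among the 18 markers of other cell types, so this list is not specific to neighbouring tissue. Oxt was listed in all 6 libraries with either strand counted, and in 5 on its own strand. On their own strand, all 12 first and last exon listings of the pituitary hormone gene Gh were identical to annotated exons. So were all 12 of the hypothalamic hormone gene Avp, all 12 of Npy and all 10 of Oxt. The same held for 12 of 15 of Th, 11 of 14 of Nkx2-1 and 6 of 10 of Prl. It held for 1 of 9 of Slc6a3, 0 of 5 of Agrp and 0 of 12 of Cartpt.

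Across the morphine and saline libraries the opioid genes had overlapping numbers of events. Together they had 34, 29 and 30 events in the morphine libraries, and 31, 31 and 29 in the saline libraries. The sums averaged 31 ± 2.65 in morphine and 30.3 ± 1.15 in saline (SD, n = 3 each). For 0 of the 8 genes did every library of one group lie above every library of the other, where 3.07% of the 15040 genes tested did so, 1.64% with morphine above and 1.43% with saline above. Limma on log2(events + 0.5), with Benjamini-Hochberg adjustment over all genes tested, called 0 of the 8 genes at an adjusted p under 0.05. It called 0.638% of the genes tested, which is 96 genes, and 480 genes had an unadjusted p under 0.05. The unadjusted limma p of each opioid gene was at least 0.0955 (n = 3 per group, a model across all genes). The smallest p that an exact two-sided permutation test of 3 against 3 libraries can give is 0.1, and the opioid genes had exact p-values between 0.4 and 1.

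**Figure D1:**
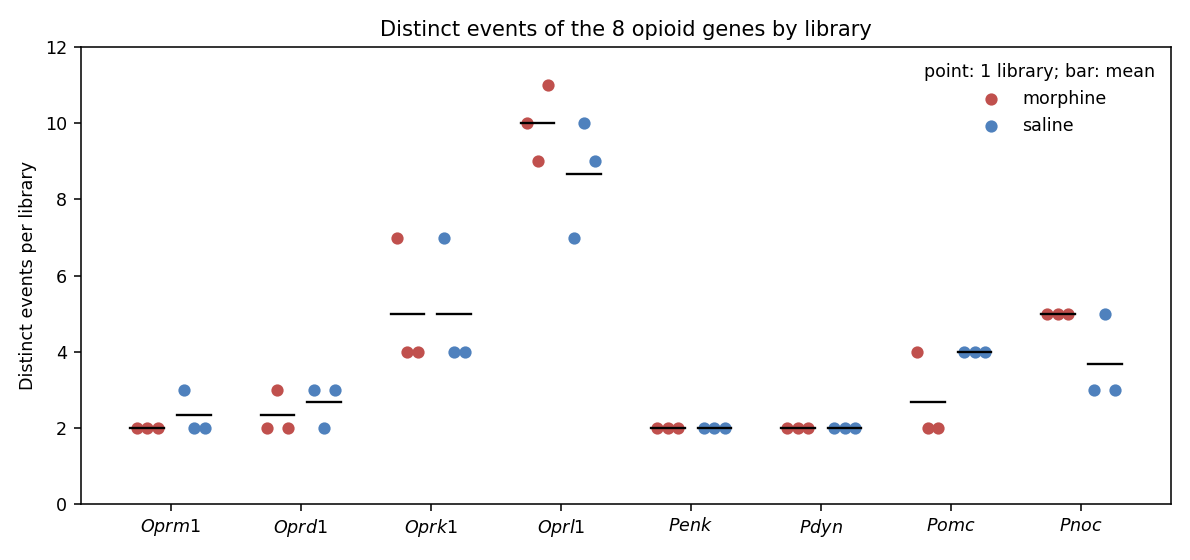
Distinct events per library (vertical axis) of each of the 8 opioid genes, with morphine libraries left of saline libraries; a point is 1 library and a bar is the mean of 3. The points of both groups overlap in every gene, Oprl1 reaches 11 events, and Penk and Pdyn sit at 2 in all 6 libraries.

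The number of events differed widely among the genes. A tested gene had a median of 2.67 events per library. Oprl1 had more events than 94.4% of tested genes, Oprk1 more than 79.8%, Pnoc more than 74.6% and Pomc more than 61.5%. Oprd1 stood above 43.2%, Oprm1 above 31.6%, and Penk and Pdyn above 12.9%. Genes with 2 events, which are 1 first and 1 last exon in Penk and Pdyn, were common, since 2779 tested genes (18.5%) had exactly 2 events in all 6 libraries.

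Over the 6 libraries the opioid genes had 41 distinct events. These were 15 first exons, 11 last exons, 7 skipping events, 8 alternative exon ends and 0 retained introns, whereas 24972 of the 128790 events of all genes were retained introns. First exons of the opioid genes summed to 12, 10 and 12 in the morphine libraries and 13, 11 and 10 in the saline libraries. Last exons summed to 8 in each morphine library, and to 9, 8 and 8 in the saline libraries. Skipping events numbered 6, 5 and 4 in the morphine libraries and 5, 4 and 5 in the saline libraries. They include 2 exons of Oprl1, each listed under 2 event types. Each exon thus counted as 2 events in every library but saline replicate 1. Alternative exon ends numbered 8, 6 and 6 in the morphine libraries and 4, 8 and 6 in the saline libraries, and no class separated the groups.

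Of the 41 events, 34 (82.9%) were annotated, against 49.2% of the events of all genes. A first or last exon was judged by its inner splice site alone, which had to belong to an annotated first or last exon. Skipping events and alternative exon ends were judged by both exon ends. The annotated events thus include the first exon of Penk and the longest last exon of Oprm1, whose outer ends lay beyond the annotation. All 6 libraries listed 19 of them (46.3%, against 20.9% for all genes), and 5 were listed in 1 library alone. Over all genes, 65299 of the 128790 events were listed in 1 library alone. The first and last exons were the same in all 6 libraries for 4 of the 8 genes, which were Oprd1, Penk, Pdyn and Pnoc, and for 3430 (26.5%) of the 12938 genes listed in all 6. The shares of all genes include retained introns, of which 6.24% were annotated and 1.51% were listed in all 6 libraries. The opioid genes had 0 events of this class. By class, the annotated share was 73.3% against 54.4% for first exons and 81.8% against 59.3% for last exons. It was 85.7% against 79.3% for skipping and 100% against 56.7% for alternative exon ends. These shares are descriptions, since genes of different structure and depth are set side by side. Of the opioid events, 0 were listed in all 3 libraries of one group and in 0 of the other, which was so for 0.665% of all events.

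**Figure D2:**
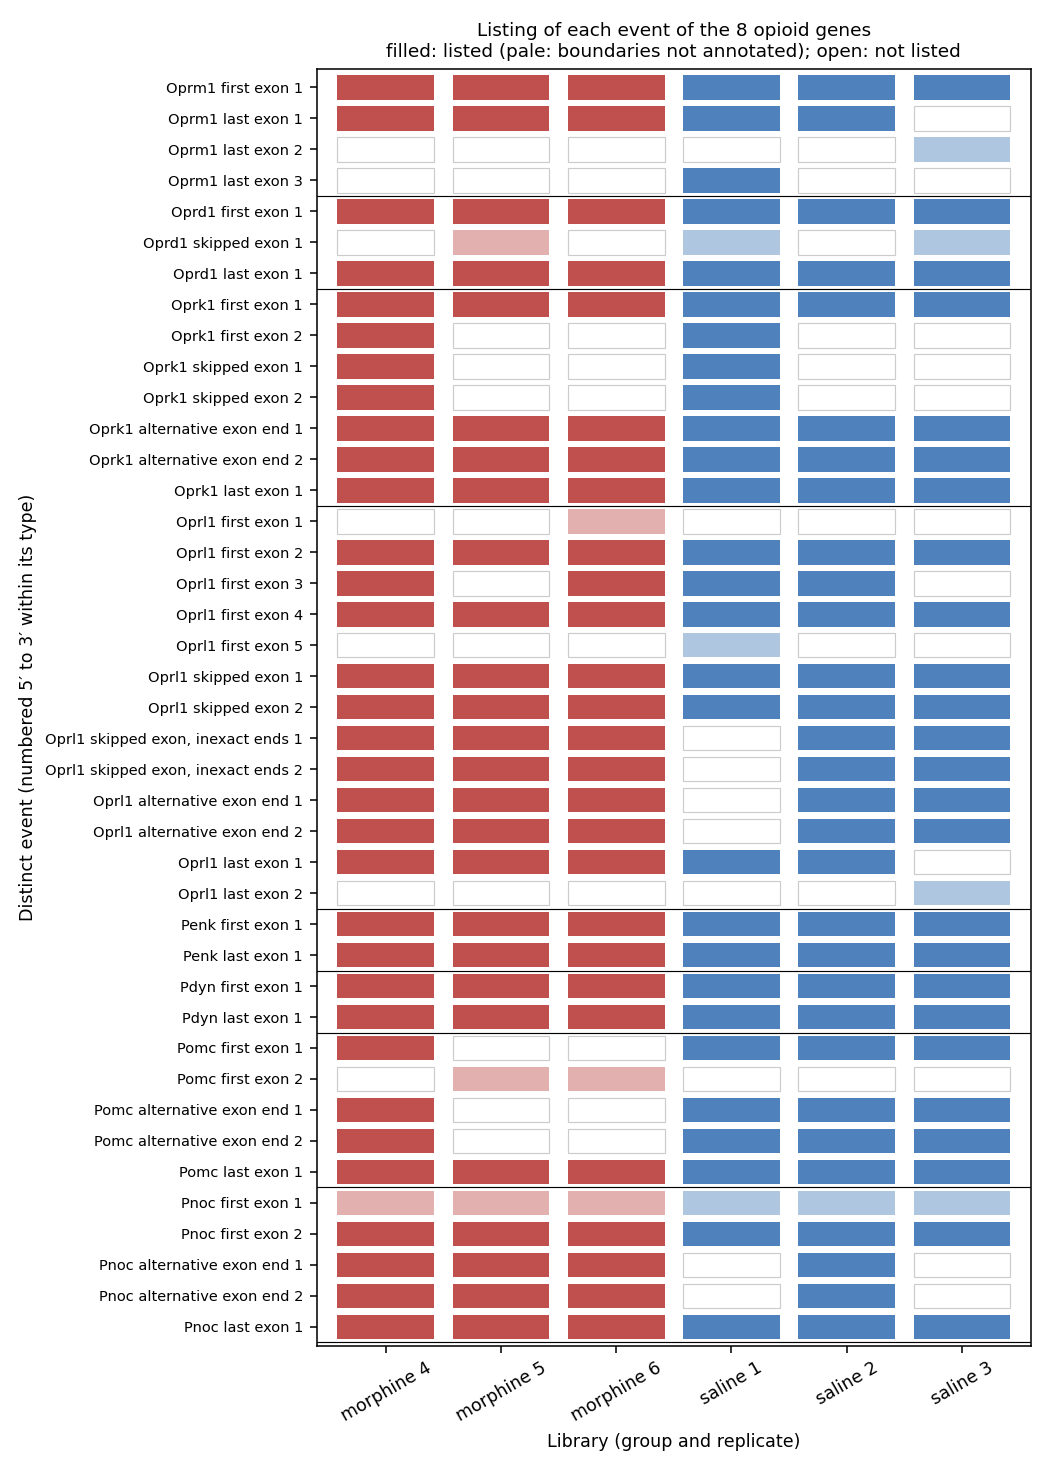
Each row is 1 of the 41 distinct events of the opioid genes, numbered 5′ to 3′ within its type, and each column is 1 library, morphine left (red) and saline right (blue). Filled cells are listed events, pale where the event is not annotated, and open cells are events not listed. First and last exons were judged by the inner splice site alone. No row is filled in all 3 libraries of 1 group and open in all 3 of the other.

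Oprm1 encodes the mu receptor, at chr10:6758506-7038198 on the plus strand of GRCm38, where 31 transcripts are annotated. It had 2 events in each morphine library, and 3, 2 and 2 events in the saline libraries. The groups overlapped at 2, and the additional event was in saline replicate 1. The log2 ratio of morphine over saline was -0.16 (SE 0.153, 95% interval -0.57 to 0.25, limma adjusted p = 0.905).

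One promoter of Oprm1 was listed. All 6 libraries had the same first exon, from 6788809 to 6789158, of 350 nt, with both boundaries annotated. The annotation also has an upstream promoter, used by 9 of the 31 transcripts, whose first exon ends at 6758690, and this exon was listed in 0 of the 6 libraries. The RefSeq promoters of both are shown, on the plus strand of GRCm38.p6, since this choice is what the catalogues record of Oprm1 transcription starts. Each runs from 250 bases before the start site to 50 after it. The listed first exon begins 239 nt after the start site of the downstream promoter.
Oprm1 downstream promoter, chr10:6788320-6788619: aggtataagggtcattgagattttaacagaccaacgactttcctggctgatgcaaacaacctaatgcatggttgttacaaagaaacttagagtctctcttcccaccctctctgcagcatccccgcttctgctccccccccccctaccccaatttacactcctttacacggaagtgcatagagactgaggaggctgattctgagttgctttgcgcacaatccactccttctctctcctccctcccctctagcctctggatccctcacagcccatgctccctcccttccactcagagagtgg
Oprm1 upstream promoter, chr10:6758343-6758642: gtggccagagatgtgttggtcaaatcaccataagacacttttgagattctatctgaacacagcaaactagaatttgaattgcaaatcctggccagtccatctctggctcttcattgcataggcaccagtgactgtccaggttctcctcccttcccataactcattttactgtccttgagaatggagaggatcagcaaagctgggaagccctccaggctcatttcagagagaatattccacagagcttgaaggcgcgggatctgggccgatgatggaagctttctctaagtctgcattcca
Neither held TATAAA, the cyclic AMP response element TGACGTCA, its core TGACG or the GC box GGGCGG on either strand, where 13.6%, 1.79%, 20.8% and 35.7% of the 32851 mouse promoters of this length held them (TGACG lies within TGACGTCA). A match or its lack describes these letters only.

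The last exons listed for Oprm1 varied between saline libraries. A last exon beginning at 6849806 was listed in all 3 morphine libraries and in saline replicates 1 and 2. Saline replicate 3 instead listed a last exon from 6851173 to 6860012 (8840 nt), which is not annotated, and saline replicate 1 listed, in addition, an annotated last exon from 6979616 to 6979754 (139 nt). The first of these exons ends the coding sequence of the standard receptor form and the last ends that of a longer-tailed splice form. Their coding ends, read from GENCODE M21 transcripts on the plus strand of GRCm38, hold 13 and 31 codons, with the stop codon in capitals.
Oprm1 tail of last exon 1, chr10:6849806-6849844: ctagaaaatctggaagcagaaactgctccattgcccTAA
Oprm1 tail of last exon 3, chr10:6979616-6979708: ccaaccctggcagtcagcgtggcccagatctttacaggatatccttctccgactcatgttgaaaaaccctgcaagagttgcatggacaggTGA
The C-terminal tail is the part of the receptor that is phosphorylated and binds arrestins. The longer-tailed form was listed in 0 of 3 morphine libraries and in 1 of 3 saline libraries, which is a difference of 1 library.

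The last exon at 6849806 ran far past its annotation. Its 3′ end lay at 6860289, 6859936 and 6860027 in the morphine libraries, and at 6860026 and 6860027 in saline replicates 1 and 2. These ends were 9676, 9323 and 9414 nt beyond the outermost annotated end in morphine, and 9413 and 9414 nt in saline. The assembled exon was thus between 10131 and 10484 nt long, and the saline ends lay within the morphine range. The unannotated last exon of saline replicate 3 ended at 6860012.

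Oprd1 encodes the delta receptor, which binds enkephalins, at chr4:132110726-132144486 on the minus strand, with 1 annotated transcript of 3 exons. It had 2, 3 and 2 events in the morphine libraries, and 3, 2 and 3 in the saline libraries. Both groups held libraries at 2 and at 3, and the log2 ratio was -0.16 (SE 0.217, 95% interval -0.74 to 0.42, limma adjusted p = 0.998). All 6 libraries listed the annotated first exon, from 132144159 to 132144486, and the annotated acceptor of the last exon at 132114068. The varying event was a skipped exon of 243 nt, from 132126166 to 132126408, between the annotated first and second exons. It was listed in morphine replicate 5 and in saline replicates 1 and 3, and is not annotated. Its length equals 81 whole codons, but its sequence was not read, so whether it codes or holds a stop codon is unknown.

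The last exon of Oprd1 ended at its annotated position, 132110726, in morphine replicates 4 and 6 and in saline replicates 2 and 3. It ran 4477 nt further in morphine replicate 5 and 3389 nt further in saline replicate 1. The exon was 3343 nt long at the annotated end, 7820 nt in morphine replicate 5 and 6732 nt in saline replicate 1. The gene model Gm37711, on the same strand from 132104830 to 132109363, overlaps both extensions, and reads of the neighbouring models cannot be told apart there.

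Oprk1 encodes the kappa receptor, the target of dynorphin, at chr1:5588466-5606131 on the plus strand. It had 7, 4 and 4 events in the morphine libraries, and the same numbers, 7, 4 and 4, in the saline libraries. Morphine replicate 4 and saline replicate 1 stood above the others, and the log2 ratio was 0.00 (SE 0.33, 95% interval -0.88 to 0.88, limma adjusted p = 1). The 3 additional events were the same in both of these libraries. One was a second first exon, from 5588941 to 5589305, and the others were skipping of the exon that holds the start codon at 5589049. The first exon that ends at 5588663 was listed in all 6 libraries. All 6 also listed a pair of acceptors 30 nt apart, at 5589005 and 5589035, in front of the start codon.

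The last exon of Oprk1 began at 5602252 in all 6 libraries. It ended at 5602866 in morphine replicates 4 and 6 and in all 3 saline libraries (615 nt), and at 5606131 in morphine replicate 5 (3880 nt). Both ends are annotated. All 14 first and last exon listings of Oprk1 were identical to annotated exons.

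Oprl1 encodes the nociceptin receptor, which resembles the opioid receptors but does not bind the usual opioid peptides, at chr2:181715016-181720985 on the plus strand. It had 10, 9 and 11 events in the morphine libraries, and 7, 10 and 9 in the saline libraries. Saline replicate 1 was lowest and the groups overlapped at 9 and 10. The means were 10 ± 1 events in morphine and 8.67 ± 1.53 in saline (SD, n = 3 each; log2 ratio 0.21, SE 0.16, 95% interval -0.22 to 0.63, limma adjusted p = 0.905). In the exact two-sided permutation test p was 0.5. The ratio of Oprl1 was 0.07 without saline replicate 1, 0.00 with first and last exons only, and 0.11 without retained introns and alternative exon ends.

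Oprl1 had the most events of the 8 genes, 13, of which 4 were listed in all 6 libraries and 3 in 1 alone. The 13 include 2 skipped exons that were each counted under 2 event types. Both first exons ending at 181715229 and at 181715946 were listed in all 6 libraries. A first exon from 181715348 to 181715489 was listed in morphine replicates 4 and 6 and in saline replicates 1 and 2. The single-library events included a distant first exon from 181693982 to 181694106 in morphine replicate 6, which begins 21034 nt before the annotated gene and 5 nt from the start of Rgs19 on the other strand. Rgs19 encodes a regulator of G protein signalling. Saline replicate 1 alone had a first exon of 3031 nt, from 181715702 to 181718732. Saline replicate 3 listed, in place of the last exon at 181718814 of the other 5 libraries, an exon from 181719074 to 181719186 on the minus strand.

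The inner exons of Oprl1 were spliced in alternative ways in both groups. All 6 libraries listed skipping of an exon of 34 nt, from 181716502 to 181716535, and of an exon of 139 nt, from 181717955 to 181718093. The same 2 exons were listed again, as skipping with inexact ends, in all 3 morphine libraries and in saline replicates 2 and 3. The skipping events of Oprl1 were thus 2 exons counted under 2 types, and saline replicate 1 lacked the second type. A pair of donors at 181715931 and 181715946, 15 nt apart, was listed in all 3 morphine libraries and in saline replicates 2 and 3. The sequences below, from GENCODE M21 transcripts on the plus strand of GRCm38, show what these choices add to the coding sequence. Capitals mark the 15 bases present only with the downstream donor, the whole short exon, and the stop codon that the annotated reading frame meets in the long exon.
Oprl1 donor pair, chr2:181715902-181715946: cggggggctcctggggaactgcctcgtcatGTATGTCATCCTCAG
Oprl1 short cassette, chr2:181716502-181716535: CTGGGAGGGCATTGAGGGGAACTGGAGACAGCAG
Oprl1 long cassette to its stop, chr2:181717955-181718018: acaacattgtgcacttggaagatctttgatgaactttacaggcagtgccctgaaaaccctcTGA
The 15 bases keep the reading frame, and the 34 nt exon leaves a remainder of 1 base.

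**Figure D3:**
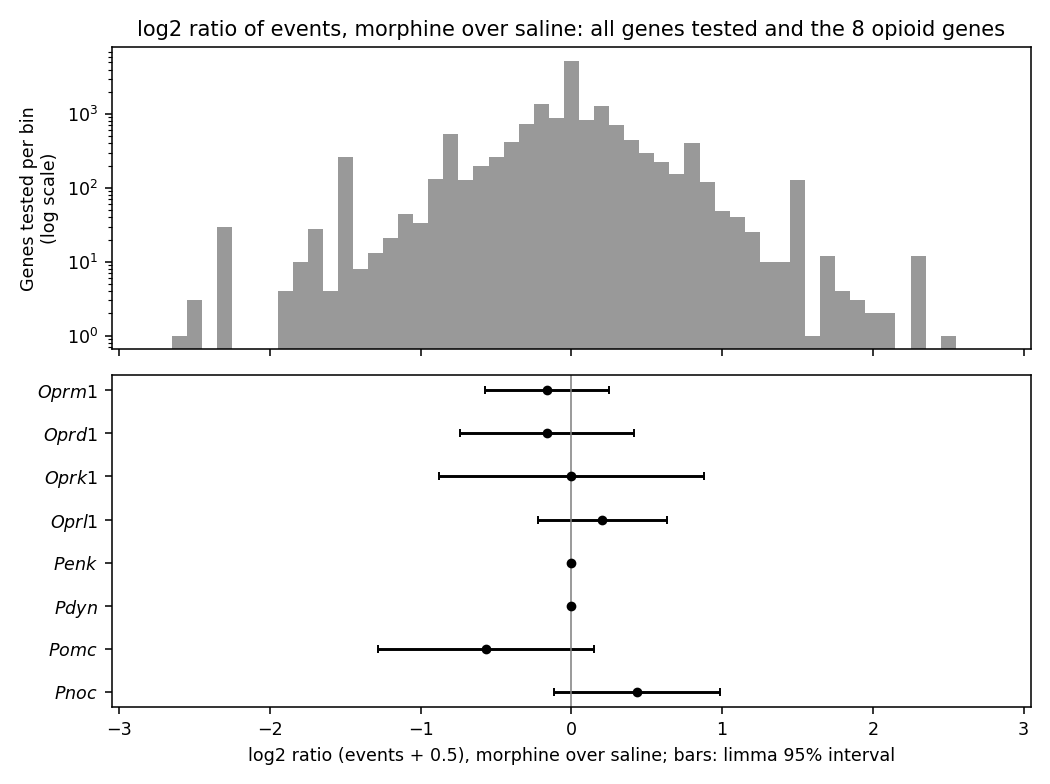
The upper panel is a histogram of the log2 ratio of events, morphine over saline, of all genes tested, with the number of genes on a log axis. The lower panel shows the ratio of each opioid gene with its 95% limma interval; all 8 intervals include 0, and Pomc (-0.57) and Pnoc (0.43) lie farthest out.

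The 4 precursor genes share an opioid core in which codons for tyrosine, or phenylalanine in Pnoc, and for glycine, glycine and phenylalanine follow each other. The coding sequences, read from GENCODE M21, held 7 such cores in Penk, 3 in Pdyn, 1 in Pomc and 1 in Pnoc. In Penk 6 were followed by a methionine codon and 1 by a leucine codon, and in Pdyn all 3 were followed by leucine. One core of each gene is shown, since it is the coding part that reaches the receptors. Capitals mark the core codons.
Penk core 1, chr4:4134334-4134348, minus strand: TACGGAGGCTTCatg
Pdyn core 2, chr2:129688130-129688144, minus strand: TATGGGGGCTTCctg
Pomc core 1, chr12:3960373-3960387, plus strand: TACGGTGGCTTCatg
Pnoc core 1, chr14:65404878-65404892, minus strand: TTTGGGGGCTTCacc
All cores of Penk, Pdyn and Pomc lie in the last exon listed in all 6 libraries. The core of Pnoc lies in the exon before it, which is the one with alternative ends, and is present with either end.

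Penk encodes proenkephalin, at chr4:4133531-4138819 on the minus strand. It had 2 events in each of the 3 morphine libraries and 2 in each of the 3 saline libraries. The last exon, from 4133531 to 4134507 (977 nt), was identical to its annotation in all 6. The first exon ended at the annotated donor, 4138635, but its 5′ end lay 73, 71 and 89 nt beyond the outermost annotated start in the morphine libraries, and 98, 69 and 39 nt beyond it in the saline libraries. The morphine values fell inside the range of the saline values. The gene model A830012C17Rik runs on the other strand from 4138321 and overlaps this exon, and the sources used here do not say whether the libraries kept the strand.

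Pdyn encodes prodynorphin, at chr2:129686565-129699844 on the minus strand. It had 2 events in each morphine library and 2 in each saline library. These were the same in all 6 libraries to the base, with a first exon from 129699708 to 129699833 and a last exon from 129686565 to 129688615. All 12 listings were identical to annotated exons. The second annotated promoter, with its start at 129698658, was listed in 0 libraries. For Penk and Pdyn the log2 ratio was 0.00, with no spread within either group.

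Pomc encodes proopiomelanocortin, the precursor of beta-endorphin and of melanocortins, at chr12:3954951-3960642 on the plus strand. It had 4, 2 and 2 events in the morphine libraries, and 4 in each saline library. Morphine replicates 5 and 6 stood below the others, and the groups overlapped at 4 through morphine replicate 4. The means were 2.67 ± 1.15 events in morphine and 4 in saline (SD, n = 3 each; log2 ratio -0.57, SE 0.268, 95% interval -1.28 to 0.15, limma adjusted p = 0.905). The exact two-sided permutation p was 0.4. Without morphine replicate 4 the log2 ratio was -0.85 and the limma adjusted p was 3.98e-06, where both groups then had no spread at all. With first and last exons only, and likewise without retained introns and alternative exon ends, the ratio of Pomc was 0.00 (limma adjusted p = 1), since its numbers differed in alternative exon ends alone.

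The 2 low libraries differed from the others in the 5′ end of Pomc. Morphine replicate 4 and all 3 saline libraries listed the annotated first exon, from 3954951 to 3955046, together with a pair of acceptors of the second exon at 3958076 and 3958106, 30 nt apart. Morphine replicates 5 and 6 listed neither. In them the first exon began inside the annotated second exon, at 3958087 in replicate 5 and at 3958104 in replicate 6, and ended at its donor, 3958260. These starts lay 42 and 25 nt before the start codon at 3958129, so the first exon held the start codon in both. The RefSeq promoter of the annotated first exon is shown, on the plus strand of GRCm38.p6, since it is the promoter that these libraries do not list. Capitals mark TATAAA, 25 nt before the start site, and a match to GGGCGG on the other strand.
Pomc promoter, chr12:3954695-3954994: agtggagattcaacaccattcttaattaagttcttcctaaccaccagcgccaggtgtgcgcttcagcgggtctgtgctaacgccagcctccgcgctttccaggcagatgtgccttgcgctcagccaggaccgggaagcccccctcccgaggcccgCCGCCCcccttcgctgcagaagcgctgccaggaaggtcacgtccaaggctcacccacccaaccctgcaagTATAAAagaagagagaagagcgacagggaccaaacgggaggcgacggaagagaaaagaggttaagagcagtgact
The listed first exon begins 6 nt after this start site. Of the 10 RefSeq promoters of the opioid genes, which cover 5 of the 8 genes, 2 held TATAAA, 2 held GGGCGG, and 0 held TGACG or TGACGTCA. Over the 32851 mouse promoters the shares were 13.6%, 35.7%, 20.8% and 1.79%, in the same order. Oprk1, Penk and Pnoc had no promoter entry. Among the 10, 2 Oprm1 entries overlap almost wholly, with start sites at 6788570 and 6788576.

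The same 2 libraries had a longer last exon of Pomc. It began at 3959893 in all 6 libraries. It ended at 3960618 in morphine replicate 4 and in all 3 saline libraries, and at 3961084 and 3961021 in morphine replicates 5 and 6. The latest of the annotated ends is 3960642, so morphine replicate 5 ran 442 nt and replicate 6 ran 379 nt beyond it. The exon was 726 nt long in morphine replicate 4 and in each saline library, 1192 nt in morphine replicate 5 and 1129 nt in replicate 6. The shorter 5′ end and the longer 3′ end thus occurred in the same 2 libraries. Whether either goes with the read depth of these libraries, which is unknown, was not tested.

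**Figure D4:**
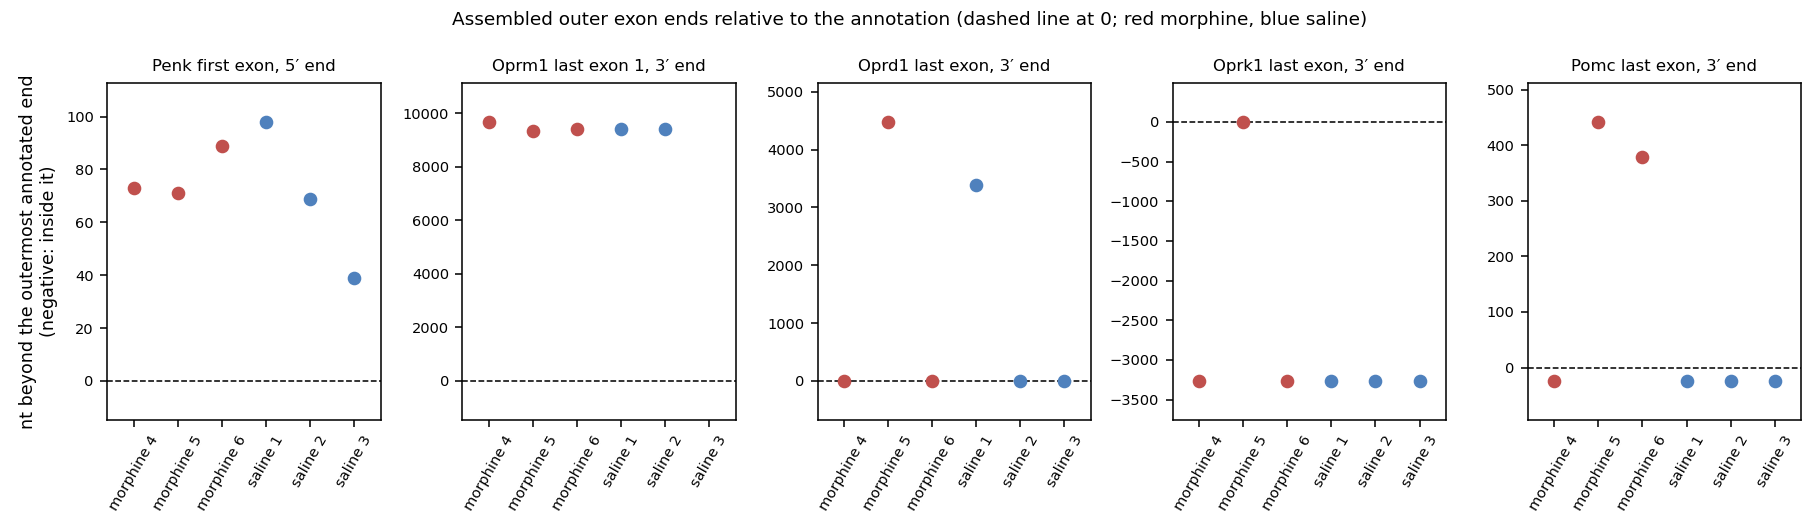
Outer ends of 5 assembled exons of opioid genes (vertical axis, nt beyond the outermost annotated end, negative inside it), 1 point per library, morphine left and saline right. Saline replicate 3 has no point in the Oprm1 panel because it lists another last exon; the Pomc ends of morphine replicates 5 and 6 lie at 442 and 379 nt, above the other 4.

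Pnoc encodes prepronociceptin, the precursor of the ligand of the Oprl1 receptor, at chr14:65400673-65425472 on the minus strand. It had 5 events in each morphine library, and 3, 5 and 3 events in the saline libraries. Saline replicates 1 and 3 stood below the others, and the groups overlapped at 5 through saline replicate 2. The means were 5 events in morphine and 3.67 ± 1.15 in saline (SD, n = 3 each; log2 ratio 0.43, SE 0.206, 95% interval -0.12 to 0.99, limma adjusted p = 0.905). The exact two-sided permutation p was 0.4. Without saline replicate 2 the log2 ratio was 0.65 and the limma adjusted p was 0.000475, again with no spread left in either group. It was 0.33 without saline replicate 1 or without saline replicate 3. With first and last exons only, and likewise without retained introns and alternative exon ends, the ratio of Pnoc was 0.00 (limma adjusted p = 1).

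The varying events of Pnoc were 2 alternative donors of 1 exon. The exon begins at 65405186 and has donors at 65404760 and 65404704, 56 nt apart, and both were listed in all 3 morphine libraries and in saline replicate 2. The exon also holds the nociceptin core, at 65404878-65404892, which lies before both donors and so in both forms of the exon.

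The first and last exons of Pnoc were listed alike. All 6 libraries had the annotated first exon, from 65425138 to 65425472 (335 nt), and the annotated last exon, from 65400673 to 65401861. All 6 also had a first exon with a donor at 65425396 that is not annotated. This exon was 77, 98 and 77 nt long in the morphine libraries, and 77, 587 and 77 nt long in the saline libraries.

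Of the 68 first exon listings of the opioid genes on their own strand, 52 (76.5%) were identical to an annotated exon at both ends, against 57.9% for all genes. For last exons this was 38 of 48 (79.2%), against 60.7%. All listings of Oprk1 and Pdyn were identical, 14 and 12 of them. Those of Oprl1 were so for 21 of 23, of Oprd1 for 10 of 12, of Pomc for 8 of 12 and of Pnoc for 12 of 18. Oprm1, with 7 of 13, and Penk, with 6 of 12, had the fewest, and in each library 1 of their exons differed from the annotation.

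The genes nearest to each opioid gene in pattern were found by the Euclidean distance between log2(events + 0.5) over the 6 libraries, a description of small whole numbers. Pomc had the same 6 numbers as Nudt18 and Rps18, and Pnoc the same as Kars and Zc3hav1. The nearest gene to Oprk1 was Eral1, at a distance of 0.29, and the nearest to Oprl1 was Mbp, at 0.311. The numbers of Oprm1 were shared by 163 genes and those of Oprd1 by 14. Penk and Pdyn did not vary, and each had 2778 genes with the same 6 numbers, the other one included.

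Other genes of opioid signalling were separated between the groups at a share near that of all genes. Of 69 such genes in 5 lists, 67 were tested, 1 was higher in every morphine library, 1 was higher in every saline library and 65 overlapped. That is 2.99% separated, against 3.07% of all genes tested. All 16 genes of precursor processing and peptide breakdown overlapped (log2 ratios -0.62 to 0.77), as did all 11 G protein subunit genes (-0.30 to 0.12). Of 19 genes of receptor regulation and trafficking 18 overlapped (-0.38 to 0.45), and of 16 effector genes 15 did (-0.39 to 0.25). The 5 tested related receptor genes overlapped too (-1.04 to 0.57). The median log2 ratio was 0 over the 67 genes and 0 over all genes tested.

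The gene that was higher in every morphine library was Rgs9, which encodes a striatal regulator that speeds the inactivation of G proteins. It had 5, 6 and 6 events in the morphine libraries and 4 in each saline library (log2 ratio 0.45, limma adjusted p = 0.385). With first and last exons alone, and likewise without retained introns and alternative exon ends, the ratio of Rgs9 was -0.40, the opposite direction. Without morphine replicate 4 the ratio of Rgs9 was 0.53, with a limma adjusted p of 0.00273, where neither group then had any spread. With any other library left out it was 0.41 or 0.45, with limma adjusted p-values from 0.489 to 0.591.

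The gene that was higher in every saline library was Kcnj3, which encodes a potassium channel subunit opened by G protein beta-gamma subunits. It had 3 events in each morphine library and 4 in each saline library (log2 ratio -0.36, limma adjusted p = 5.15e-05). Like Kcnj3, 87 of the 96 genes that limma called had no spread within either group. The call of Kcnj3 was lost with robust variance moderation (limma adjusted p = 0.965), with partner types counted (0.570), with scaling by library total (0.225), with first and last exons alone (0.963) and without retained introns and alternative exon ends (0.898). The log2 ratio of Kcnj3 in these settings was -0.36, -0.37, -0.37, -0.32 and -0.24, in the same order. For Rgs9 and Kcnj3 alike the exact two-sided permutation p was 0.1, the smallest possible here.

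**Figure D5:**
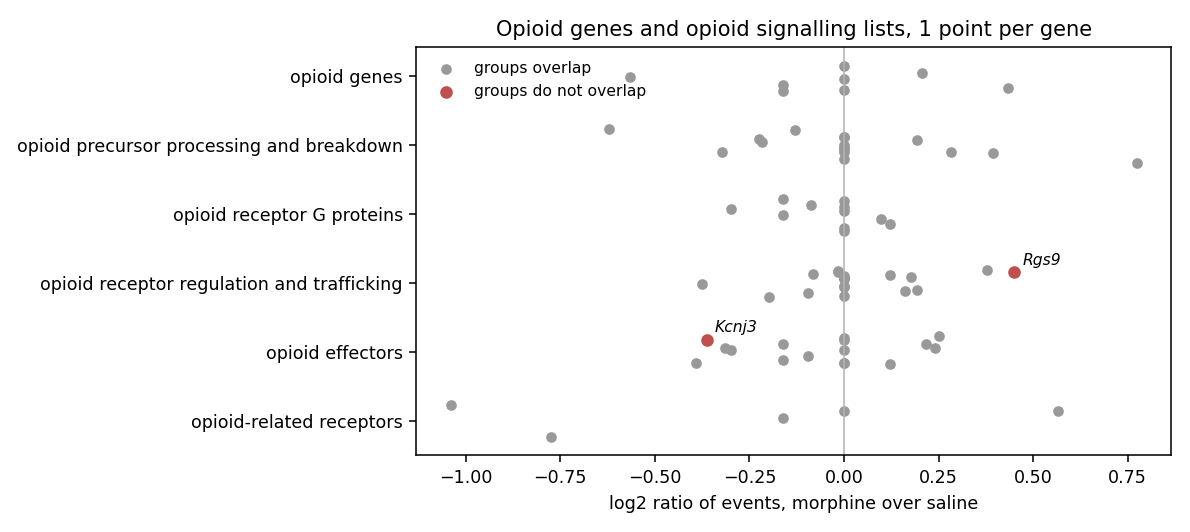
Each point is 1 gene, placed by its log2 ratio of events, morphine over saline (horizontal axis), in rows for the 8 opioid genes and the 5 signalling lists. Grey points are genes whose groups overlap, and the 2 red points are Rgs9 at 0.45 and Kcnj3 at -0.36.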

How the data were processed

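The authors deposited 1 event catalogue per library, with gene ID, event type, strand, start, end and splice pattern. The column headed fpkm, a score in whole numbers from -24 to 0 per the deposited files, is no expression value and was not used, so the limma model planned for FPKM was fitted to event numbers. The sources used here name no assembler, event caller, build or read depth, and without depth no interval or floor from counts can be given. The deposited coordinates were read on GRCm38, with GENCODE M21 for symbols, exons and transcript sequence (15833 of 15939 IDs matched) and RefSeq for promoters.

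An event was distinct by gene ID, type, strand and pattern, and partner types ending in OFF were not counted. The members, gene lists and tests were chosen with earlier results of these data known. All members are named, and of the lists every gene whose groups do not overlap, at most 5 per direction. Limma 3.58.1 in R 4.3.3 (eBayes with trend, Benjamini-Hochberg adjustment) was fitted to log2(events + 0.5) for genes whose mean reached 0.5 events, and was tested on simulated data. Exact two-sided permutation tests used Python 3.11.15. Alternatives were pseudocounts of 0.1 and 1, other filters, event definitions, scaling, limma settings and leaving out each library.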

Additional observations from a re-analysis of the deposited data

How the results depend on the processing

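No paired analysis was possible because the groups share no replicate number (4 to 6 for morphine, 1 to 3 for saline). The number of genes called by limma was 96, 44 with robust eBayes, and 250 to 285 with 1 library left out. Limma called 0 opioid genes, and 0 to 1 with 1 library left out, where the groups of 0 to 1 opioid genes also did not overlap. The 1 gene was Pomc without morphine replicate 4 and Pnoc without saline replicate 2. Genes whose groups did not overlap numbered 462, 256 with first and last exons only, 818 with scaling by library total, and 961 to 1102 with 1 library left out. In the opioid signalling lists they numbered 2, 0 with first and last exons only, 0 without retention and exon end types, 5 with scaling, and 2 to 8 with 1 library left out. Events listed in every library of 1 group alone numbered 857, and 430 with first and last exons only. First and last exons of the opioid genes numbered 26, and 47 when told apart by start and end, because outer ends vary. The summed events of the opioid genes differed by 0.667, morphine minus saline, by -0.333 with first and last exons only, and by -0.833 to 1.67 with 1 library left out. The 2 reversed ratios were those of Rgs9, -0.40 with first and last exons only and -0.40 without retention and exon end types. For the 8 opioid genes no ratio other than 0 took the opposite sign, but those of Oprd1, Oprl1, Pomc and Pnoc were 0 with first and last exons only, those of Pomc and Pnoc also without retention and exon end types, and that of Oprm1 without saline replicate 1. Catalogue depth is unknown, so an event that is not listed cannot be told apart from an absent transcript.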
